A study of Mus musculus with 27 samples.

Results

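DNA methylation was examined at the genes of 2 transporter families in mouse hepatocytes, the ATP-binding cassette (ABC) proteins and the organic anion transporting polypeptides (OATPs, the Slco genes). The members were the protein-coding genes of the RefSeq table for GRCm38 whose symbols begin with Abc and a subfamily letter from a to g, or with Slco, followed by a digit. The rule gave 64 genes of 21887, of which 50 were Abc and 14 were Slco genes, and it used no measured value. It also took in Abce1, Abcf1, Abcf2 and Abcf3, which carry the ABC domain but span no membrane, and Abcc8 and Abcc9, which are regulatory subunits of potassium channels. These 6 genes are not transporters in the strict sense.

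The study surveyed histone marks, DNA methylation and gene expression in mice of 9 inbred strains to relate genetic to epigenetic variation, and its methylation data are described here. Hepatocytes were taken from the livers of female mice aged 12 weeks, with no treatment named in the labels and no control strain. The 9 groups were the wild-derived strains WSB/EiJ, PWK/PhJ and CAST/EiJ and the classical laboratory strains C57BL/6J, A/J, NZO/HlLtJ, DBA/2J, 129S1/SvImJ and NOD/ShiLtJ. Each had 3 samples labelled as biological replicates, 27 in all, and each strain is inbred, so that its mice are near-identical in genome. Methylation was read by reduced representation bisulfite sequencing (RRBS), in which DNA is cut at CCGG and unmethylated cytosines near the cuts are converted, so that the percentage of unconverted reads at a cytosine gives its methylation level. The lists held 2904787 to 3156965 positions per sample with a percentage each and no read count, so depth is unknown and the errors given are those between samples.

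ABC transporters use the energy of ATP to move lipids, bile acids, drugs and conjugates across membranes. In the hepatocyte several of them pump bile salts, phospholipid, sterols and conjugates into the bile canaliculus, while OATPs on the side facing the blood take up organic anions such as bile acids, bilirubin and hormones. At mammalian genes, starts rich in CpG dinucleotides are usually unmethylated whether or not the gene is active, and CpGs inside genes are usually methylated. RRBS reads both kinds, wherever CCGG sites lie close enough together, so whether a start is read depends in part on its sequence.

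The sequences before 5 starts give examples of starts with and without measured positions. They are the 250 bases before the start on the strand of the gene, from the RefSeq promoter table for GRCm38, with every CG in capitals. Abca1, which loads cholesterol onto apolipoprotein A-I, has a start full of CG. Abcb11, the bile salt export pump, and Slco1b2, the main liver OATP of the mouse, had no measured position there. Abca4 and Abca16 are shown because their starts were methylated. The windows lie at chr4:53159896-53160145 on the minus strand (Abca1), chr2:69342617-69342866 on the minus strand (Abcb11), chr6:141629268-141629517 on the plus strand (Slco1b2), chr3:122044210-122044459 on the plus strand (Abca4) and chr7:120409397-120409646 on the plus strand (Abca16).
Abca1: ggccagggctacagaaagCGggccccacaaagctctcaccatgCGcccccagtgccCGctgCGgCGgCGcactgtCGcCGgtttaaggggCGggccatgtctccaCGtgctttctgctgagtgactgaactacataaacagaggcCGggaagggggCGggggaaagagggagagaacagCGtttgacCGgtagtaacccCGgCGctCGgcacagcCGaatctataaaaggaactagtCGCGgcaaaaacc
Abcb11: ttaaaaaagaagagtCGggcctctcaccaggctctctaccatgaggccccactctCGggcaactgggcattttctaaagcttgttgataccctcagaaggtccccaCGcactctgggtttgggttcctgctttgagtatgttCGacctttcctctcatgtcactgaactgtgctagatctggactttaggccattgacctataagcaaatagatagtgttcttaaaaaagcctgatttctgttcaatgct
Slco1b2: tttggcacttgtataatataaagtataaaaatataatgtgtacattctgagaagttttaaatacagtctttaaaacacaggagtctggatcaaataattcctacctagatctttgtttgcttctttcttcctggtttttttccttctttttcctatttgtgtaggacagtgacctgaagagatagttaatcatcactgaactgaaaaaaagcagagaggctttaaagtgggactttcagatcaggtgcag
Abca4: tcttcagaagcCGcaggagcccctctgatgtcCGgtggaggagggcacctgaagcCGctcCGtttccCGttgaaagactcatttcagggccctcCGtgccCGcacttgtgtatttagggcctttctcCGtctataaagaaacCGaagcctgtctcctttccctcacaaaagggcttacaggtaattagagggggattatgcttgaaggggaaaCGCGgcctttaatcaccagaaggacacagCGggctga
Abca16: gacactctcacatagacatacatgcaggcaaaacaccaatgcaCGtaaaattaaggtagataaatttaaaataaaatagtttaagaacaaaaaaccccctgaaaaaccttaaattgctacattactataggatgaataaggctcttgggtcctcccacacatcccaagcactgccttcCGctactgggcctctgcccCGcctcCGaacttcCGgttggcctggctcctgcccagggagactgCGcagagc

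The Abca1 window held 20 CG and 4 CCGG sites, and its 30 measured positions averaged 0.473%, with the highest at 1.83%. The Abca4 window held 12 CG, and the Abca16 window 6. Their measured positions, 2 and 8 in number, averaged 71.1% and 83.1%. The Abcb11 window held 4 CG and no CCGG, and the Slco1b2 window held no CG at all. Among the 61 start windows of members in the promoter table, 36 (59.0%) held at least 1 CCGG, which reads the same on both strands, against 55.7% of the 21263 windows of all protein-coding genes. The median window held 9 CG in members and 10 in all genes, and 21.3% of member windows and 22.6% of all windows held at most 2. The windows of Slco1a1, Slco1a4, Slco1c1 and Abcb1a also held no CG. Of the 10 member genes whose richest window held at most 2 CG, 9 had no measured position within 500 bp of a start. Of the 26 whose richest window held at least 12, 25 had at least 5 measured positions there, and 22 of these 25 were below 5%. The window did not settle whether a start was read. Those of Abcf3 and Slco2a1 held no CCGG, but 22 and 32 positions were measured within 500 bp of the start. That of Abca15 held 13 CG and 1 CCGG, and 12 positions in it were listed in some sample, but none was measured.

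**Figure D1:**
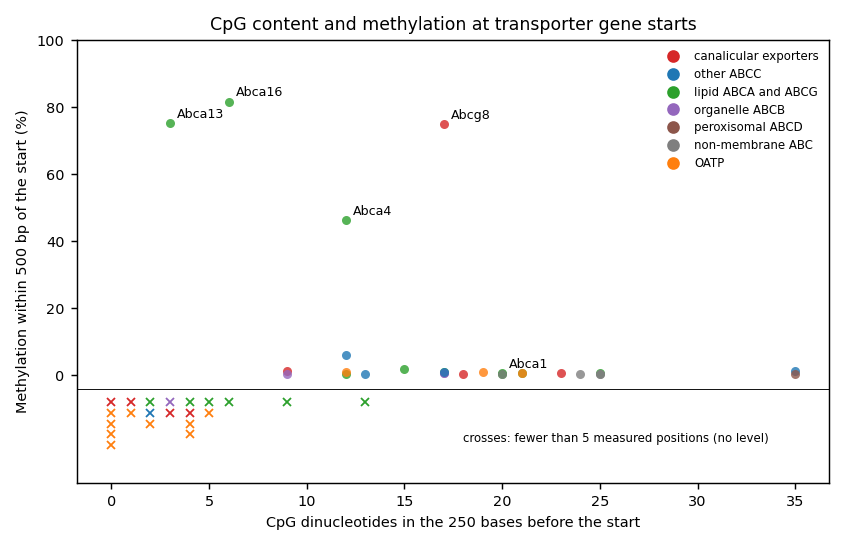
Mean methylation within 500 bp of the start (y axis, %) against the number of CG in the 250 bases before it (x axis), 1 point per member gene with a start in the promoter table (for several starts, the highest number of CG and the level over all of them), coloured by role. Most starts with 12 or more CG lie near 0, Abca4, Abca13, Abca16 and Abcg8 lie between 46.4% and 81.8%, and crosses under the line are genes with fewer than 5 measured positions, whose height carries no level.

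A position was used when it was listed in at least 2 of the 3 samples of every strain, and a gene was read over its span with 2 kb on either side. Of 13267 member positions listed in any sample, 4592 met this rule, with a median of 54.5 per gene. The rule left 62 of the 64 members with a measured position, 57 with at least 5, and 54 that entered the test after 3 genes with a mean under 2.5% (Abcd3, Abce1 and Slco4c1) were set aside. Slco1a1 and Slco1c1 had no measured position. Slco6c1 had 1, Slco1b2, Slco1a4 and Abca8a had 2 each, and Abcb5 had 4. Positions listed in at least 2 samples of each other strain were checked per strain, with listing in CAST/EiJ and PWK/PhJ not required. They were absent from all CAST/EiJ samples in 8.35% of cases at members and 7.69% over the genome. They were absent from all PWK/PhJ samples in 7.21% and 7.63%. For the other 7 strains the shares were 0.447% to 1.86% at members and 0.479% to 2.04% over the genome. The share was higher at members than over the genome in DBA/2J (1.86% and 0.712%), 129S1/SvImJ (1.73% and 0.694%), NOD/ShiLtJ (1.68% and 0.609%) and C57BL/6J (0.907% and 0.794%), and lower in the remaining 3.

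The strain means of most member genes lay within a few points of each other. Strains were compared by limma's moderated F test across all 14809 genes with enough positions, on log2((percent + 5)/(100 - percent + 5)), with Benjamini-Hochberg adjustment. A gene was called when its adjusted p was under 0.05 and its highest and lowest strain means were at least 10 percentage points apart. Of the 54 members tested, 1 was called (1.85%), against 8.06% of all genes. The adjusted p alone was under 0.05 in 15 (27.8%), against 31.2% of all genes, and the unadjusted p in 18 (33.3%), against 39.9%. The median distance between the highest and lowest strain was 4.37 points in members and 3.07 points in all genes tested. No member had all 3 samples of a strain at least 10 points beyond the other 24 samples with a limma adjusted p under 0.05. Of all genes, 0.378% did. With a distance of 5 points 1 member, Abca6, did, and the share over all genes at that distance is not given here.

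**Figure D2:**
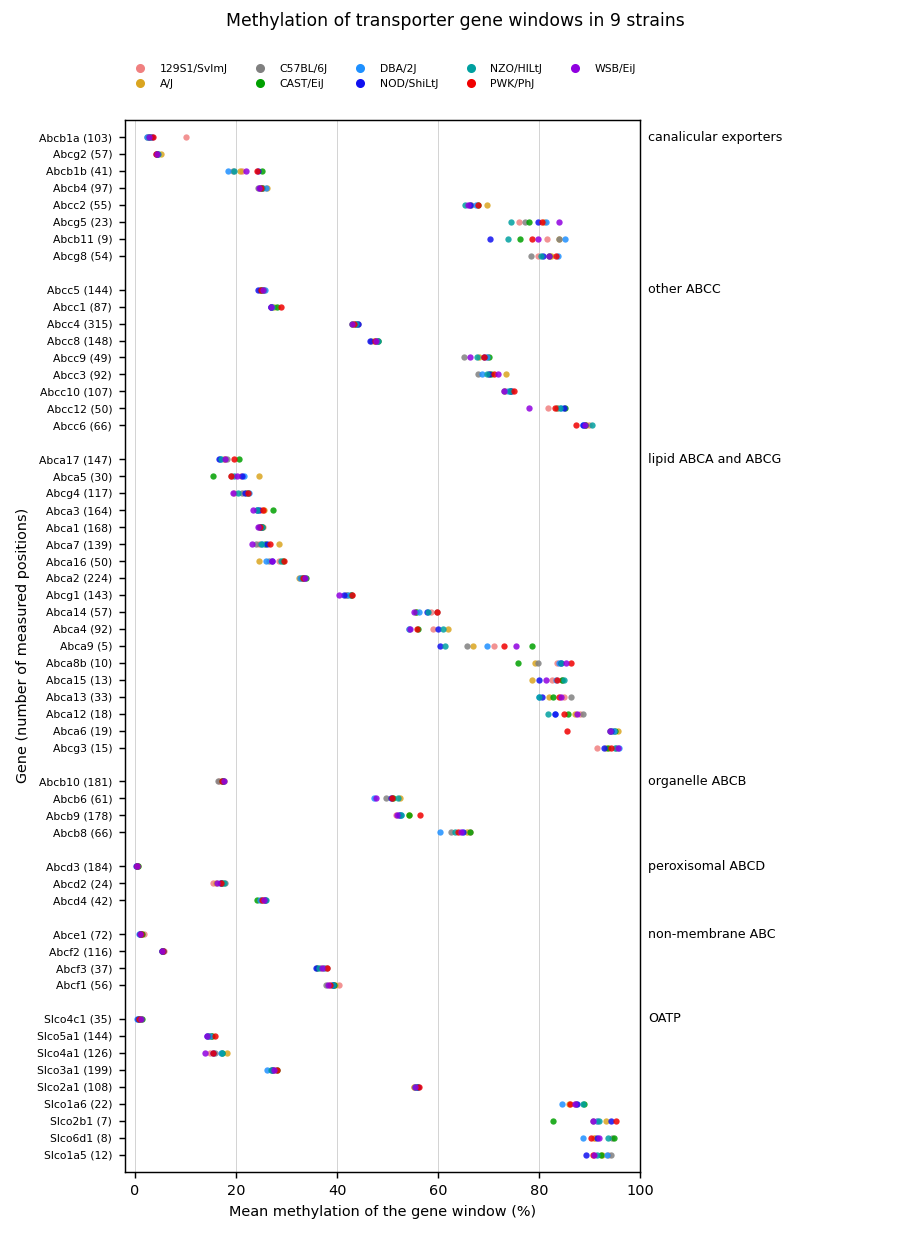
Mean methylation of the gene window (x axis, %) for the 55 autosomal members with at least 5 measured positions, 9 strain means per gene in colour, each over 3 samples, grouped by role, with the number of measured positions after each symbol. The genes spread from 0.446% (Abcd3) to 94.1% (Abcg3), while the strains of a gene mostly overlap, with Abcb1a in 129S1/SvImJ and Abca6 in PWK/PhJ standing off.

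Levels were low at the starts of these genes and high elsewhere. At the 29 autosomal member starts with at least 5 positions within 500 bp, the median level was 0.673%, and 24 starts (82.8%) were below 5%. Over all 10467 such starts of the genome the median was 0.617% and 86.7% were below 5%. The rest of a window was taken without positions at the starts of other genes. At Abca17 this left out 83 positions at the Abca3 start, which averaged 0.571%. In 25 members both the start and the rest so taken held at least 5 positions. The start was the lower in 24 of these 25, with medians of 0.720% at the start and 79.2% elsewhere. Abca16 was the exception, with 81.8% at its start and 9.63% elsewhere.

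**Figure D3:**
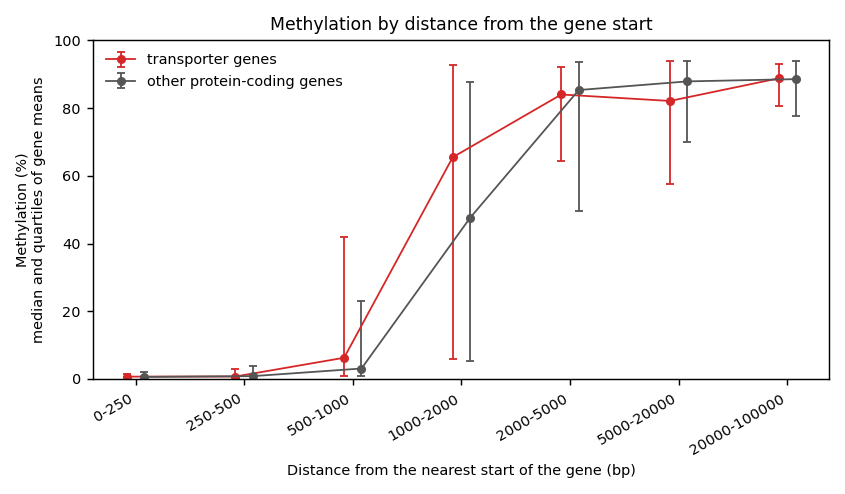
Methylation (y axis, %) by distance from the nearest start of the gene (x axis, bp), as the median over genes of the gene mean in each bin, with the lower and upper quartile as bars. The median of transporter genes is 0.675% within 250 bp and 88.8% beyond 20000 bp, and that of other protein-coding genes 0.596% and 88.6%.

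Of the starts in the promoter table with at least 5 positions, those that were methylated belonged to Abca4 (46.4%), Abcg8 (74.9%), Abca13 (75.2%) and Abca16 (81.8%), and Abcc9 stood at 6.19%. At 50% or more were 3 of the 29 autosomal member starts (10.3%), all of these but Abca4 and Abcc9, against 4.46% of all autosomal starts. ABCA4 moves retinoid-lipid conjugates in photoreceptors, and ABCG8 forms the sterol exporter of the canaliculus with ABCG5. Abcg8 has 2 starts in the promoter table, and 7 of its 8 positions lie in the 250 bases before the one inside the Abcg5 span, at chr17:84676052-84676301. All 8 also count towards Abcg5. No position was measured in the 250 bases before the other Abcg8 start or within 500 bp of the Abcg5 start.

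Of the 9 member starts or gene ends that could be tested for strain differences, 2 were called (22.2%), against 19.2% of all 3570. One was the Abca4 start and the other the lower-coordinate end of Abcc3, and both are described with the 1 kb tiles that contain them. Where a gene had no start in the promoter table, as in 14 members including Abcc3, both ends of its span were read, so an end is not always a start.

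Among the canalicular exporters, Abcb1a was the gene whose strain difference was most distinct from the spread between samples. ABCB1A, a P-glycoprotein, exports drugs and other hydrophobic compounds. Its window averaged 8.75%, 10.3% and 11.4% in the 129S1/SvImJ samples and 1.94% to 3.83% in the other 24 samples. No sample of another strain reached the lowest of 129S1/SvImJ, and the strain mean of 10.1% ± 1.33 (SD, n = 3) was 7.77 points above that of DBA/2J, 2.36% ± 0.0538 (SD, n = 3). The limma adjusted p was 2.58e-10, but the distance was under the 10 points needed for a call.

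The excess at Abcb1a came from a short stretch. At 10 neighbouring positions over 37 bases (chr5:8622627-8622663, GRCm38) the 129S1/SvImJ samples averaged 34.3%, 45.1% and 47.9%, and the other 24 samples 0% to 4.55%. The strain mean was 42.4% ± 7.16 (SD, n = 3) against 0.633% ± 1.01 (SD, n = 24). This run was sought after the values were seen, as at least 5 neighbouring called positions with the same strain at least 10 points beyond all others. Of the 57 members with at least 5 positions, 1 held such a run, against 0.97% of all genes with as many.

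The run lies inside the Abcb1a span but 289 to 325 bp past the start of Rundc3b, a gene read from the opposite strand, and 88 of the 103 Abcb1a positions are shared with that gene. The wider stretch with 129S1/SvImJ highest covered 107 bases and 22 measured positions. In 129S1/SvImJ, 18 of them had means of 25.9% to 51.2%, and the 4 others 0% to 2.38%. No other strain exceeded 6.06% at any of the 22. Because its 1 kb tile averaged 1.62% over all samples, it fell under the limit on the mean and was not tested as a tile. Whether the stretch bears on Abcb1a or on Rundc3b cannot be told apart from position alone.

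**Figure D4:**
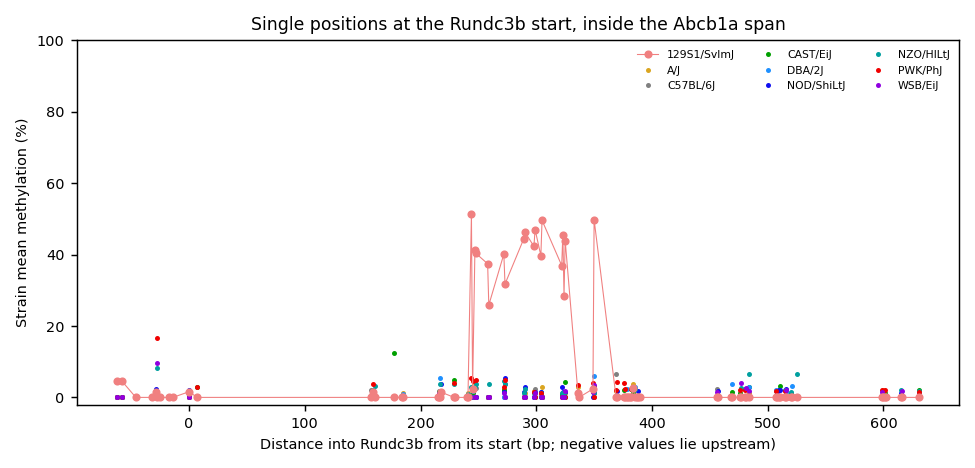
Strain mean methylation (y axis, %) of single positions by distance into Rundc3b from its start (x axis, bp), inside the Abcb1a span. The 129S1/SvImJ means, joined by a line, rise to 51.2% between 244 and 350 bp, where every other strain stays at or below 6.06%.

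The other canalicular exporters showed smaller or noisier differences. Of all 8, Abcb1a included, 0 were called by limma and 3 had an adjusted p under 0.05, beside 8.06% and 31.2% of all genes. Abcb11 was read at 9 positions, with strain means from 70.3% ± 3.99 in NOD/ShiLtJ to 85.1% ± 6.80 in DBA/2J (SD, n = 3 each). Its NOD/ShiLtJ samples stood at 68.7%, 67.3% and 74.8% and its DBA/2J samples at 78.3%, 91.9% and 85.1%, so these extremes did not overlap, but the strains between them filled the gap and the limma adjusted p was 0.134. Abcb11 was called when its positions were limited to those listed in all 27 samples (14.5 points, limma adjusted p = 0.00131) or to the span without flanks (24 points, limma adjusted p = 0.0423).

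Abcb1b, the second mouse P-glycoprotein, ranged from 18.4% ± 2.5 in DBA/2J to 25.1% ± 0.691 in CAST/EiJ (SD, n = 3 each, limma adjusted p = 0.0303). Its DBA/2J samples stood at 18.7%, 15.8% and 20.8% and its CAST/EiJ samples at 25.9%, 24.7% and 24.7%, with no overlap. Abcb4, which moves phosphatidylcholine into bile, had 97 positions and strain means within 1.84 points of each other (limma adjusted p = 0.0498). Without the positions listed at 0% in a strain, described with Abca6 in what follows, the limma adjusted p was 0.0509 for Abcb1b and 0.0506 for Abcb4. Abcg2, a urate and drug exporter, had 57 positions and strain means within 1.08 points. Abcc2, which exports conjugated bilirubin, averaged 67.0% with strain means within 4.26 points. The sterol exporters Abcg5 and Abcg8 averaged 79.1% and 81.3%, and their strain means spanned 9.58 and 5.19 points. Abcg5 was called when only positions in the window of a single gene were used (11.8 points, limma adjusted p = 0.032), which leaves out those shared with Abcg8.

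Among the lipid transporters of the ABCA and ABCG families, 7 of the 18 tested had an adjusted p under 0.05, beside 31.2% of all genes. Abca6 was the only one called, where 8.06% of all genes were. Abca6 belongs to a cluster of lipid transporter genes on chromosome 11. Its 19 positions averaged 86.9%, 84.0% and 85.5% in the PWK/PhJ samples and 92.3% to 96.6% in the other 24, with no overlap. The distance from PWK/PhJ, 85.5% ± 1.47, to A/J, 95.5% ± 0.252 (SD, n = 3 each), was 10.1 points, with a limma adjusted p of 9.68e-05. It was just above the limit of 10 points, and fell below it without A/J replicate 1 (9.93 points) or PWK/PhJ replicate 3 (9.33 points). With only positions listed in all 27 samples it was 6.14 points (limma adjusted p = 0.062).

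The difference at Abca6 rested on 2 positions. They lie at chr11:110224041 and chr11:110224075, where every listed PWK/PhJ sample stood at 0% and the means of the other strains at 87.5% to 100% and 88% to 96.7%. The 3 other positions of the same 1 kb tile stood at 95.4% to 100% in PWK/PhJ, within 12.4 points of every other strain. Without positions of this kind, the distance from A/J to PWK/PhJ at Abca6 was -0.377 points (limma adjusted p = 0.764). Whether PWK/PhJ carries a CG at these 2 places was not tested, since strain genomes were not used here. RRBS reads a cytosine that the strain has replaced by thymine as unmethylated.

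Positions listed at 0% in every sample of a strain and at 50% or more in the mean of another were rare among members and not particular to them. They were 39 of the 4592 measured positions (0.849%), against 0.862% over the genome. At members they occurred in every strain, from 6 in CAST/EiJ to 15 in WSB/EiJ, with 14 in C57BL/6J and 11 in PWK/PhJ. Some of these positions stood at 0% in 6 strains at once. Among positions called different between strains they were 12 of 93 at members (12.9%) and 15.4% over the genome. Leaving them out changed the number of called member genes from 1 to 0, that of called member tiles from 14 to 12 and that of called positions from 93 to 78.

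Abca1 was the steadiest of the lipid transporters. Its 168 positions averaged 24.9%, single samples lay between 23.2% and 26.2%, and the strain means were within 0.996 points of each other, while the SD between samples of a strain reached 1.45 points (limma adjusted p = 0.88). Abcg1, which with ABCA1 moves cholesterol out of cells, averaged 42.1% over 143 positions with strain means within 2.55 points. The highest level of any tested member belonged to Abcg3 (94.1%, 15 positions) and the lowest of all members with 5 positions to the peroxisomal Abcd3 (0.446%, 184 positions, all near its start).

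Wide strain ranges did not always pass the test. Abca9, with 5 positions, spanned 18.1 points from NOD/ShiLtJ to CAST/EiJ, but the NOD/ShiLtJ samples alone ran from 39.4% to 71.1% and the limma adjusted p was 0.316. Abca8b spanned 10.6 points over 10 positions (limma adjusted p = 0.85). Slco2b1, an uptake carrier for steroid sulphates, spanned 12.4 points over 7 positions, and its lowest strain, CAST/EiJ, held samples at 94.4%, 86.8% and 66.8% (limma adjusted p = 0.41). These genes had few positions and an SD between samples of up to 18.2 points within a strain.

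The OATPs were the members that the assay saw least. Of 14 genes, 9 had at least 5 positions, 8 were tested and 1, Slco4a1, had an adjusted p under 0.05, with 4.21 points between its strains. Over all genes tested, 31.2% had an adjusted p under 0.05. Slco1b2 was read at 2 positions, which averaged 94.8% and lay between 87.6% and 100% in every sample, with NZO/HlLtJ lowest at 89.4% ± 1.55 and DBA/2J highest at 96.9% ± 1.41 (SD, n = 3 each, not tested). Slco1a4, which takes up bile acids and steroids, was read at 2 positions that averaged 88.8%. Slco2a1, the prostaglandin transporter, averaged 55.6% over 108 positions with strain means within 0.969 points, and its start stood at 0.862%.

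Among the other ABCC genes, 2 of 9 had an adjusted p under 0.05 and none was called by limma, beside 31.2% and 8.06% of all genes. Abcc3, which exports conjugates towards the blood, averaged 70.3% and spanned 5.59 points (limma adjusted p = 0.0333). Abcc4, an exporter of cyclic nucleotides and bile acids, averaged 43.6% over 315 positions, the most of any member, with strain means within 1.17 points. Abcc6, whose loss causes ectopic calcification, averaged 89.0% with strain means within 3.04 points. The organelle ABCB genes had 2 of 5 with an adjusted p under 0.05, and the 3 tested peroxisomal and 3 tested non-membrane genes had none. At an unadjusted limma p under 0.05 the numbers for these last 2 roles were 0 and 0, beside 39.9% of all genes.

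Strain means spanned more points in parts of these genes than over whole gene windows, as they did over the genome. A tile usually averages fewer positions than a gene window, and the part of this in the wider spans was not tested. Windows of 1 kb with at least 5 positions (tiles) were tested in the same way and called when the strain means spanned at least 25 points. The median span was 7.60 points in member tiles and 8.74 points in all tiles tested, where that of genes was 4.37 and 3.07 points. Of 160 member tiles, 26 had an adjusted p under 0.05 (16.2%), against 20.8% of all 57387 tiles. With the minimum span added, 14 of the 160 were called (8.75%), against 7.76% of all tiles and 7.22% of tiles in windows of protein-coding genes. They lay in 12 genes, and in all 14 the samples of the highest strain were above those of the lowest. At 13 of the 14 the mean over all samples was between 20% and 80%. In that band 13 of 31 member tiles (41.9%) were called, against 26.4% of all tiles, while 1 of 109 was called above 80% and 0 of 20 below 20%, where 1.34% and 3.88% of all tiles were. Of those 20 tiles, 3 had a limma adjusted p under 0.05 and 7 an unadjusted limma p under 0.05. The shares of all tiles below 20% at these p limits are not given here. The counts therefore do not set member tiles against other tiles.

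The widest tile lay in Abca17, a lipid transporter gene of rodents, at chr17:24265001-24266000. CAST/EiJ stood at 83.9%, 88.1% and 84.1%, PWK/PhJ at 79.7%, 83.8% and 81.9%, and C57BL/6J at 63.9%, 77.2% and 74.5%. The samples of the other 6 strains lay between 23.9% and 53.6%, below every sample of those 3. The distance from NZO/HlLtJ, 25.7% ± 2.45, to CAST/EiJ, 85.4% ± 2.38 (SD, n = 3 each), was 59.6 points (limma adjusted p = 5.48e-11). All 7 positions of the tile that were tested were called, and the remaining one stood at 94.4% or more in every strain. The tile lies 85559 bp into the gene, whose start stood at 0.921%.

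Abcc12, an ABCC gene of little known function, held 2 called tiles. In the one at chr8:86550001-86551000 the WSB/EiJ samples stood at 35.9%, 36.6% and 43.0%, below every other sample, and 129S1/SvImJ at 51.7%, 77.8% and 61.6%. The samples of the other 7 strains ran from 73.6% to 95.8%. The distance from WSB/EiJ to PWK/PhJ was 53.7 points (limma adjusted p = 9.18e-07). In the tile at chr8:86578001-86579000, whose centre lies at -11910 bp from the start in the promoter table, PWK/PhJ was lowest at 20.8%, 21.2% and 25% and WSB/EiJ highest at 64.1%, 52.0% and 49.4% (32.8 points, limma adjusted p = 0.00289). At 3 of the 6 positions of this second tile the PWK/PhJ mean was 0%, and at 2 of these another strain's mean was above 50%. Without those 2 the tile had fewer than 5 positions, was not tested and its call was lost.

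The Abca6 tile was the only member tile with a strain at least 10 points beyond all other samples, which 1.41% of all tiles showed. PWK/PhJ stood at 60%, 58.5% and 48.4% and the other 24 samples at 91.3% to 98.7%, by the 2 positions described above. Without them the tile had 3 positions and was not tested.

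In Abcc3, the tile at chr11:94343001-94344000, which is also the called lower-coordinate end, was lowest in C57BL/6J (38.1%, 47.8% and 48.6%) and highest in WSB/EiJ (78.6%, 79.6% and 88.8%), 37.5 points apart (limma adjusted p = 1.09e-04). A/J, CAST/EiJ and PWK/PhJ lay with WSB/EiJ between 70.0% and 81.7%. The tile held a position at which all C57BL/6J samples stood at 0%, and spanned 28.6 points without it (limma adjusted p = 0.0143). Of its positions, only the one at chr11:94343361 lies inside the Abcc3 span, whose lower end is at 94343295. The Abcc3 window shared 6 positions with that of Ankrd40.

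In Abcb8, which encodes a mitochondrial transporter, the tile at chr5:24408001-24409000 was low in PWK/PhJ (64.2%, 54.4% and 52.9%) and in DBA/2J (52.8%, 54.1% and 65.0%), and 73.7% to 94.8% in all samples of the other 7 strains. The distance from PWK/PhJ to 129S1/SvImJ was 35.9 points (limma adjusted p = 1.32e-07). The tile also overlaps Cdk5.

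In Slco4a1, a thyroid hormone carrier and the only OATP with a called tile, the tile at chr2:180457001-180458000 lies 1255 bp past the start. It was lowest in 129S1/SvImJ (13.8%, 21.9% and 16.2%) and WSB/EiJ (21.3%, 29.3% and 13.9%) and highest in A/J (47.5%, 56.6% and 55.1%). The distance was 35.8 points (limma adjusted p = 8.78e-05), and 29.2 points without a position at which 129S1/SvImJ stood at 0%. The start itself stood at 0.809%, with strain means within 1.01 points.

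**Figure D5:**
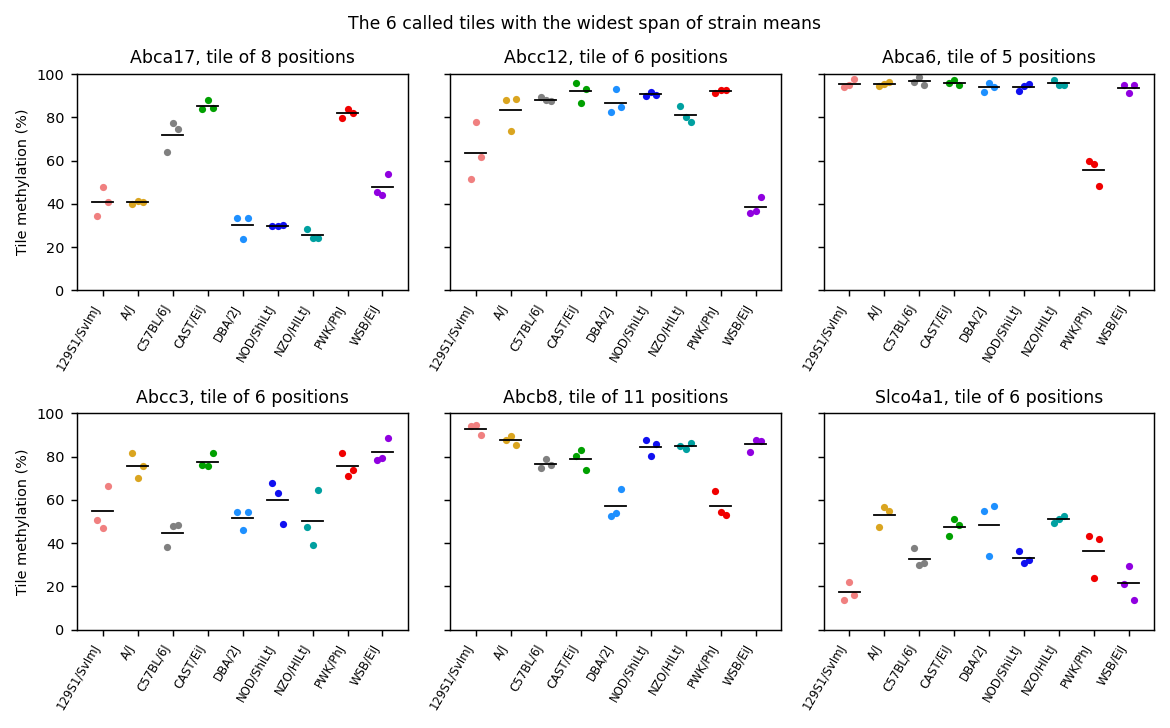
Tile methylation (y axis, %) of each of the 27 samples by strain (x axis) in the 6 called member tiles with the widest strain ranges, with a bar at the strain mean. CAST/EiJ, PWK/PhJ and C57BL/6J lie above the rest in Abca17, WSB/EiJ lies lowest in the Abcc12 tile, and PWK/PhJ lies between 48.4% and 60% in Abca6, where all others are above 90%.

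Abca4 held 2 called tiles close to each other. The tile at chr3:122044001-122045000 contains the methylated start, and its 16 positions are the same as those of the start. It was lowest in PWK/PhJ (38.6%, 23.7% and 32.0%) and WSB/EiJ (35.2%, 29.4% and 31.8%) and highest in NZO/HlLtJ (67.3%, 61.6% and 69.1%), 34.6 points apart (limma adjusted p = 1.84e-05). The tile at chr3:122048001-122049000, 4040 bp past the start, was lowest in DBA/2J (34.2%, 41.7% and 36.1%) and highest in A/J (72.7%, 64.8% and 73.8%), 33.1 points apart (limma adjusted p = 2.97e-04). The strain order of the tiles differed, as NZO/HlLtJ was highest in the first and stood at 51.4% ± 8.53 (SD, n = 3) in the second.

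Abcc5, an exporter of cyclic nucleotides, and Abcb9, a peptide transporter of lysosomes, each held a tile in which the CAST/EiJ and PWK/PhJ samples lay together. In Abcc5 (chr16:20357001-20358000) they stood at 41.0% to 53.8%, and every sample of the other 7 strains at 64.0% to 88.4% (WSB/EiJ minus CAST/EiJ 34.7 points, limma adjusted p = 7.65e-05). In Abcb9 (chr5:124076001-124077000) they stood at 69.0% to 73.3%, above every other sample, with A/J next at 58.7%, 65.2% and 60.3% and the remaining strains at 33.6% to 51.5% (PWK/PhJ minus WSB/EiJ 32.1 points, limma adjusted p = 1.68e-05). CAST/EiJ and PWK/PhJ were thus lower in one gene and higher in the other.

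The tile of Abca3, which moves surfactant lipids, at chr17:24364001-24365000 was near the limit of the test. WSB/EiJ stood at 36.4%, 37.5% and 35.6% and A/J at 81.2%, 58.7% and 72.9%, 34.4 points apart (limma adjusted p = 0.0428), and no position in it was called alone. The call was lost in 25 of the 38 alternatives under which the tile was still tested. The remaining called tiles, in Abca14 and Abcc4, spanned 29.2 and 26.1 points.

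Among the 14 called tiles PWK/PhJ was highest in 4 and lowest in 4, WSB/EiJ highest in 3 and lowest in 4, and A/J highest in 3 and lowest in 1. Over all 4453 called tiles, PWK/PhJ was highest in 28.5% and lowest in 11.3%, WSB/EiJ highest in 5.59% and lowest in 16.1%, and A/J highest in 16.2% and lowest in 3.84%. CAST/EiJ was highest in 1 and lowest in 1 of the 14, and in 23.8% and 14.9% of all called tiles. With the CAST/EiJ and PWK/PhJ samples left out, 8 of 162 member tiles were called, against 3.46% of all tiles. Of single positions, 93 of 2164 tested at members were called at 25 points, against 4.33% of all 868536.

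Genes that work with these transporters in bile acid, sterol and organic ion handling were read from a list of 31, with the same tests. Of 28 tested, 7 were called and 15 had a limma adjusted p under 0.05, beside the 8.06% and 31.2% of all genes given above. They divided into 3 of 8 tested genes of bile acid synthesis and handling, 3 of 11 regulators, 1 of 4 other organic ion carriers and 0 of 5 sterol and HDL partners (3 of these with an adjusted p under 0.05), and 9 of their 61 tiles were called, where 7.76% of all tiles were. Cyp7a1, the rate-limiting enzyme of bile acid synthesis, ranged from 48.2% in C57BL/6J to 83.1% in WSB/EiJ (35.0 points, limma adjusted p = 6.0e-05), and Cyp8b1, which sets the share of cholic acid, from 12.4% in DBA/2J to 40.5% in NZO/HlLtJ (28.1 points, limma adjusted p = 0.00143). Slc10a1, the sodium-dependent bile acid importer that works beside the OATPs, ranged from 29.6% in CAST/EiJ to 47.9% in NZO/HlLtJ (18.3 points, limma adjusted p = 1.74e-04). Nr1i2 and Nr1i3, the xenobiotic receptors that control several Abc and Slco genes, spanned 18.1 and 17.3 points (limma adjusted p = 0.00651 and 6.78e-06).

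The label of the cells could be set only against methylation, since expression is not among these values, and the levels of the marker lists overlapped. Of 12 hepatocyte markers, 9 had at least 5 positions, among them Apoa1 at 6.61%, Cps1 at 56.8% and Abcb11 itself at 79.2%, while Alb had 2 positions (16.0%) and Serpina1a had none. The 4 stellate cell markers ran from 5.93% (Lrat) to 55.3% (Pdgfrb), the 4 cholangiocyte markers from 11.1% (Sox9) to 43.3% (Epcam) and the 4 endothelial markers from 59.1% (Cdh5) to 89.7% (Stab2). The 3 Kupffer cell markers ran from 79.6% (Csf1r) to 90.4% (Clec4f). Among leukocyte genes Itgam and Laptm5 stood at 82.7% and 83.1%, Spi1 at 67.6%, Ptprc at 60.9% and Cd79a at 3.15%, and Cd3e had no position. Over all marker lists, 3 of 9 tested hepatocyte, 1 of 6 leukocyte, 0 of 3 Kupffer, 1 of 4 endothelial, 0 of 4 stellate and 1 of 4 cholangiocyte genes were called between strains. The part of other cells in the differences above was not tested.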

How the data were processed

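Methylation was measured by RRBS in hepatocytes of 27 female mice of 9 strains, grouped by the strain in the labels. Per the labels' protocols, DNA was cut with MspI, ligated to adapters, converted with bisulfite and amplified. The submitters' processing notes list Trim Galore 0.6.3, Bowtie2, Bismark 0.22 and the build GRCm38, and any coverage filter is not given in the sources used here. The authors deposited, per the file headers, 1 percent methylation value per position, with no counts, so the planned quasi-binomial test on counts was replaced by the planned test for percentages. The C57BL/6J lists name the mitochondrial chromosome M and those of the other strains MT, so a difference in processing cannot be told apart from that strain.

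Gene names, spans and starts came from RefSeq tables of assembly GRCm38.p6, which give no exons, so exonic and intronic positions were not separated. Values of all positions of a gene window (2 kb flanks), start (500 bp) or tile (1 kb) were averaged per sample, each strand of a CpG counting as a position. Features with at least 5 positions and a mean of 2.5% to 97.5% were tested over the genome with 8 and 18 degrees of freedom before the prior. The test was computed in Python 3.11.15 (numpy 2.4.6, scipy 1.17.1, pandas 2.3.3, figures with matplotlib 3.10.9), tested on simulated data and checked against limma 3.58.1 in R 4.3.3, where 0 of 14809 genes and 0 of 57387 tiles fell on different sides of 0.05.

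The members, lists and tests were chosen with earlier results of these data known. Values were given for listed liver transporters, the lowest and highest member, called members and the 12 widest called tiles, and for at most 5 called companion genes. Other genes named with values (Abca9, Abca8b, Slco4a1 and the methylated starts, Abca13 and Abcc9 among them), the run in Abcb1a and the positions at 0% were picked with their values already in view. Alternatives varied the listing rule, offset, thresholds, windows, strands, replicate block and samples. No 2 samples correlated above 0.973, so none was counted as a duplicate. Some genes are not reported by name here.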

Additional observations from a re-analysis of the deposited data

How the results depend on the processing

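Of 1339 values recomputed under alternatives, 1276 were counted as unchanged. Counts had to stay within 1.5 times, and named genes and tiles had to keep their call. A reversed direction was counted as a change only for those called as reported, so reversals in uncalled genes are not shown by this number. A named gene or tile that was not tested under a setting gave no value there. A call lost in that way was not counted as a change, so the number of unchanged values overstates how often calls were kept. The number of called member genes, 1 as reported, was 0 with the minimum range doubled, 9 with it halved, 3 without flanks, 2 with a minimum of 3 positions, 4 with positions in the window of a single gene, 2 with positions over 1 kb from the start, 0 without CAST/EiJ and PWK/PhJ, and 0 without positions listed at 0% in a strain. It was 0 to 2 with each sample left out in turn, being 0 without A/J replicate 1 or PWK/PhJ replicate 3 and 2 without A/J replicate 3. Called starts, 2 as reported, were 1 with a minimum of 10 positions and 2 to 2 with a sample left out. Called tiles, 14 as reported, were 2 with the range doubled, 2 with a minimum of 10 positions, 8 with strands averaged, 8 without CAST/EiJ and PWK/PhJ, and 13 to 16 with a sample left out. Called positions, 93 as reported, were 49 without CAST/EiJ and PWK/PhJ and 82 to 106 with a sample left out. Genes set apart in a strain, 0 as reported, were 1 with a gap of 5 points and 0 to 0 with a sample left out. The Abca6 distance from A/J to PWK/PhJ turned to -0.377 points without positions at 0%, as that setting removes the 2 positions behind it, and it was 6.14 points (limma adjusted p = 0.062) with positions listed in all 27 samples; causes of the other changes were not tested. Leaving out strains or positions at 0% was chosen after seeing the data. The counts under alternatives are for members alone. The shares over all features under those settings are not printed beside them, so they do not set members against other genes.

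Replicate numbers did not pair the samples: deviations of 76 same-numbered pairs from their strain means correlated at 0.0013 on average, with 0 pairs over 0.1. With the replicate block, 1 gene, 2 starts, 13 tiles, 72 positions and 0 genes set apart were called. Without C57BL/6J the numbers were 1, 2, 13, 89 and 0. Depth is unknown, so a gene read at few positions may differ between strains by more than these data could show.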
